A study of Mus musculus with 25 samples.

Results

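The genes described here are 42 genes of the ATF4 and amino acid stress response, taken by symbol from the 55385 genes of the count tables of 5 murine melanoma lines. They comprise Atf4 and other regulators, stress effectors, secreted and surface proteins, enzymes of serine, one-carbon and amino acid synthesis, amino acid transporters, and tRNA synthetases with the tRNA exporter Xpot. Of the 42 members, 41 had enough counts for a test. Fgf21, a secreted metabolic hormone, had at most 1 count in any library and was not tested.

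The study compared lines that form liver metastases with different efficiency, with WT31, B16F10 luc2 and RET as HIM-melanoma (high or intermediate) and D4M and HCmel12 as LM-melanoma (low). Each line was represented by 5 libraries of total RNA from untreated cultures at 50% confluency, called biological replicates in the labels, so that p-values measure the spread between cultures of a single line. WT31 carries Tyr::NrasQ61K on an INK4a-/- background, and RET comes from mice in which the metallothionein promoter drives human RET. B16F10 luc2 is the luciferase-expressing form of the B16F10 line, HCmel12 derives from a melanoma of HGF-CDK4(R24C) mice, and D4M carries Tyr::CreER;BrafCA;Ptenlox/lox. WT31, B16F10 luc2 and RET were kept in RPMI medium with 10% fetal calf serum. HCmel12 was kept in this medium with the same share of serum plus Hepes, beta-mercaptoethanol, L-glutamine, pyruvate and non-essential amino acids, and D4M in Advanced DMEM/F-12 with 5% serum and glutamine. Since several of these additions are amino acids or act on cystine, line and medium cannot be told apart in any comparison with D4M or HCmel12.

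ATF4 is a transcription factor whose translation increases when a kinase phosphorylates the initiation factor eIF2, for instance GCN2 (Eif2ak4) upon amino acid shortage or PERK (Eif2ak3) upon stress of the endoplasmic reticulum. With partners of the C/EBP family it binds composite C/EBP-ATF response elements and activates genes for the uptake and synthesis of amino acids, for the charging of tRNA and, when stress persists, for growth arrest and cell death. The amount of Atf4 mRNA is therefore only a part of ATF4 activity, and the protein was not measured in these libraries.

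The promoters of several members hold the letters of such an element close to the transcription start. The sequence TGATGNAA, the core of the C/EBP-ATF response element, was searched on both strands in windows from 250 bases before to 50 bases after the start (RefSeq, GRCm38.p6). It was found for 12 of the 36 members with a window (33.3%) and for 1219 of 27025 genes with a window (4.51%). The 12 members were Chac1, Trib3, Slc7a11, Asns, Gars, Fgf21, Nupr1, Herpud1, Aars, Slc1a4, Pycr1 and Vldlr. No window was available for Slc1a5, Cth, Slc7a5, Nars, Slc7a3 and Wars. The members were listed as genes of the ATF4 response, so that their larger share is not independent of how they were chosen. A match is a description of the letters and not of a bound site. Stretches of 60 bases around the match are shown for Chac1 and Pycr1, which were among the 6 members that deviated most in HCmel12 replicate 4, for Slc7a11, which was highest in WT31, and for Herpud1, which was highest in B16F10 luc2 and RET. All are written 5′ to 3′ on the strand of the gene, with the match in capitals.
Chac1, plus strand, chr2:119351023-119351082, match from 193 to 186 bases before the start: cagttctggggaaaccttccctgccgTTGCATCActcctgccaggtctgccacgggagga
Slc7a11, minus strand, chr3:50443646-50443705, match from 66 to 59 bases before the start: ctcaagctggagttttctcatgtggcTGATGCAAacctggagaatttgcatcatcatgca
Herpud1, plus strand, chr8:94386291-94386350, match from 112 to 105 bases before the start: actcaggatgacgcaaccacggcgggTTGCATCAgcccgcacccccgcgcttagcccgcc
Pycr1, minus strand, chr11:120643818-120643877, match from 103 to 96 bases before the start: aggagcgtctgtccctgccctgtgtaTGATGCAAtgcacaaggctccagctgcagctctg
The stretch of Slc7a11 holds a second match on the opposite strand, from 47 to 40 bases before the start. The matches of Chac1 and Herpud1 lie on the strand opposite to the gene.

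Library totals lay between 24199083 and 25843286 counts, and the members took between 0.357% (D4M replicate 2) and 0.696% (RET replicate 2) of the counts of a library. A count of 3, the smallest amount taken as detectable, corresponds to 0.111 to 0.138 CPM (counts relative to the sum over tested genes, scaled with TMM factors), which covers counting error only. In WT31, B16F10 luc2, RET and HCmel12 the means of the 7 melanocyte markers were 143 CPM or more, with the exception of Tyr in HCmel12 (12.5 CPM). Their summed level was between 12000 and 30200 CPM in these lines and between 6.54 and 59.6 CPM in D4M. Replicate 1 of D4M had the highest value, with 7 of 7 markers above the range of the other D4M libraries (median log2 deviation 4.28). The D4M mean of Sox10, 0.552 CPM (SD 0.872), rests largely on this library, whereas Mitf had a mean of 6.38 CPM (SD 0.41). The mean of Mitf in the other lines was 416 CPM or more. The summed level of 5 fibroblast markers was highest in D4M, where Pdgfra and Col1a1 were above 1 CPM, Dcn and Thy1 below it and Lum at 0, and keratinocyte markers were at most 0.444 CPM in sum. One library stood apart within its line for the members described here. In HCmel12 replicate 4, 39 of the 41 tested members lay above the range of the other 4 HCmel12 libraries, so that results with HCmel12 are also given without it.

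To find out which line stood apart for each member, all lines were compared pairwise in a model with one mean per line (voom and limma, Benjamini-Hochberg adjusted p under 0.05, n = 5 libraries per line), and a line was counted when it differed from each of the 4 others in the same direction. WT31 was below each of the 4 other lines for 15 of 41 members (36.6%), where 11.1% of all 15247 tested genes behaved in this way. The 15 members were 3 of the 5 genes for serine and one-carbon metabolism (Phgdh, Shmt2 and Mthfd2), 6 of the 7 genes for tRNA charging and export (Aars, Gars, Wars, Nars, Eprs and Xpot), 3 further enzymes (Aldh18a1, Cth and Cbs), and Nupr1, Trib3 and Slc7a3. For Slc7a3, WT31 and RET both had fewer than 3 counts in every library, so that the call between them separates undetected levels, and 14 members were lowest without it. WT31 was above each of the 4 others for 5 members (13.8% of all genes), and 3 of these were the transporters Slc7a11, Slc7a5 and Slc3a2. The remaining 2 were Vldlr and Gpt2. Without HCmel12 replicate 4, 16 members were lowest in WT31 (11.3% of 15477 tested genes), Asns in addition to the 15.

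**Figure D1:**
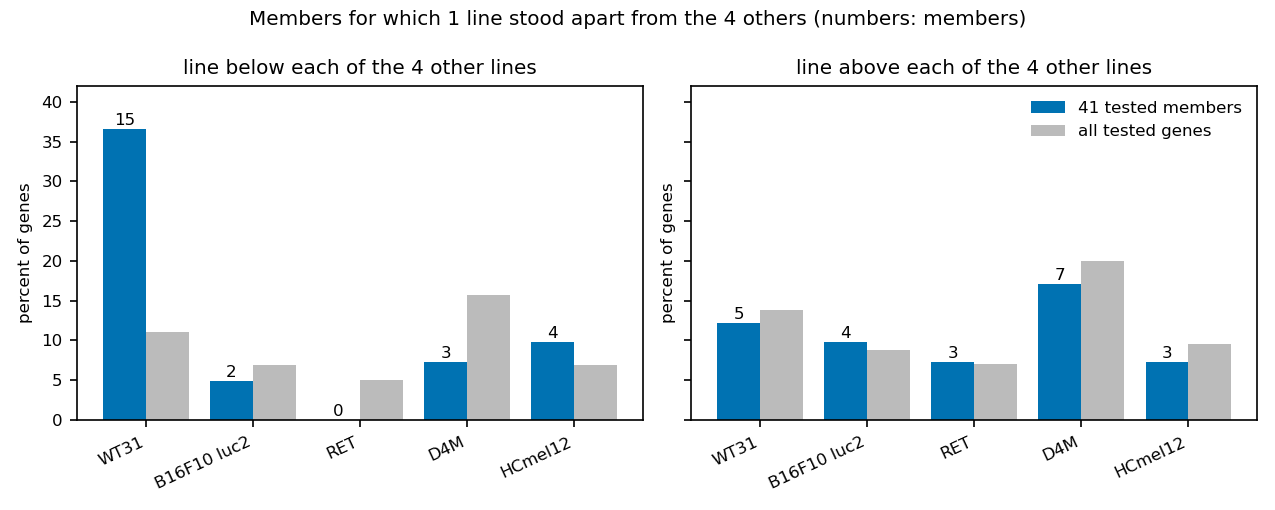
Percent of genes for which 1 line was below (left) or above (right) each of the 4 other lines, for the 41 tested members (blue, with the number of members) and for all 15247 tested genes (grey). In the left panel WT31 reaches 36.6% of the members against 11.1% of all genes.

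For the other lines the shares of the members were closer to those of all genes. B16F10 luc2 was above the 4 others for 4 members (8.81% of all genes) and below them for 2 (6.83%). RET was above for 3 members (7.07%) and below for 0 (5.06%). For D4M, 7 members were above (20% of all genes) and 3 below (15.7%). For HCmel12, 3 members were above (9.56%) and 4 below (6.85%). Some of these counts changed when HCmel12 replicate 4 was left out. Without it B16F10 luc2 was above the others for 5 members (8.99% of all genes), with Trib3 in addition. RET was then above the others for 7 members (7.49% of all genes), with Chac1, Gdf15, Psph and Pycr1 in addition, and HCmel12 was below for 7 members (6.8%), with Pycr1, Gpt2 and Slc1a4 in addition. The members below in D4M then numbered 1 (15.3% of all genes), which was Slc7a1.

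**Figure D2:**
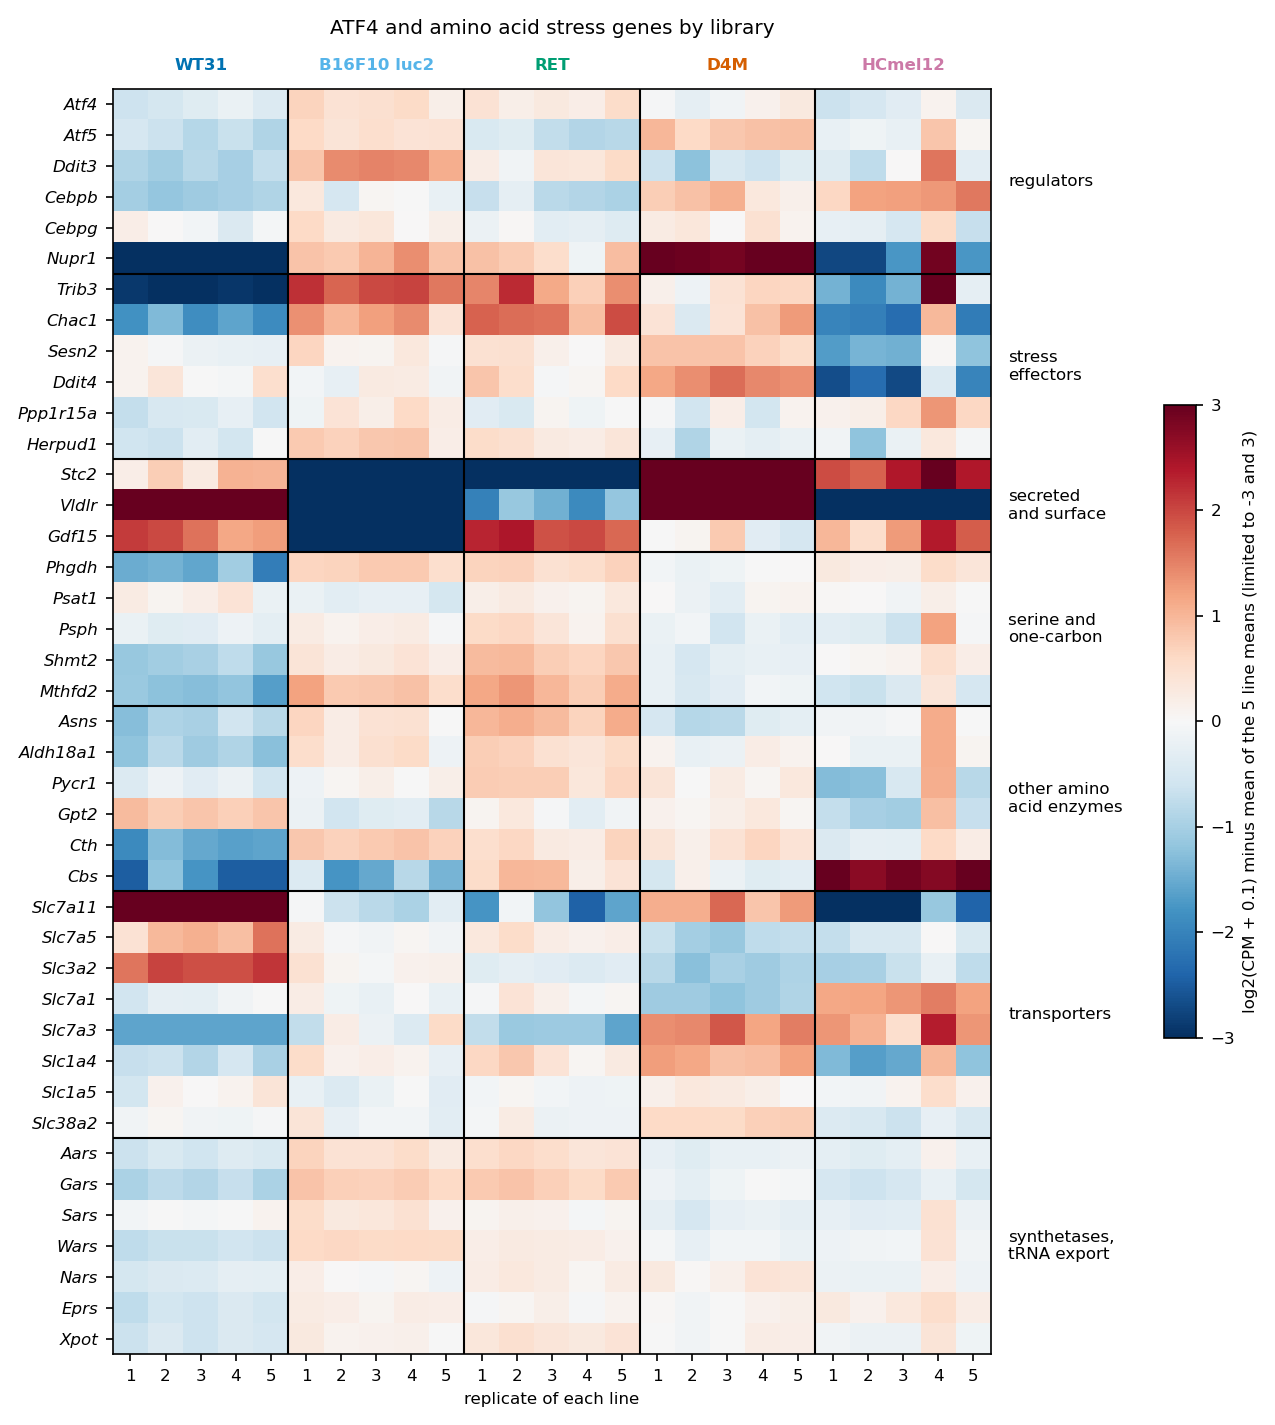
Level of each tested member (rows, grouped by role) in each library (columns, 5 replicates per line), as log2(CPM + 0.1) minus the mean of the 5 line means, with the colour limited to differences of 3 on the log2 scale. The columns of WT31 are blue for most rows and reach the upper limit of the colour for Vldlr and Slc7a11, and the column of HCmel12 replicate 4 is redder than its neighbours for most members.

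Between pairs of lines, from 19 to 36 of the 41 members were called, and in each pair with WT31 more members were lower than higher in WT31. WT31 differed from B16F10 luc2 in 34 members (72.8% of all genes were called), of which 8 were higher (36.4% of all genes) and 26 lower (36.4%) in WT31. From RET it differed in 31 members (73.2%), 6 of them higher (36.8%) and 25 lower (36.4%). The comparison with D4M called 33 members (76.1%), 8 of them higher (37.5%) and 25 lower (38.6%) in WT31. Relative to HCmel12 30 members were called (70.4%), 8 higher (36.1%) and 22 lower (34.3%) in WT31. The median log2 difference of the members was -0.78, -0.71, -0.59 and -0.30 in these 4 comparisons, whereas that of all tested genes was between -0.01 and 0.01. These comparisons share the WT31 libraries and are not independent of each other.

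Among the other lines, RET and HCmel12 differed in the largest number of members, 36 of 41 (67.2% of all genes), of which 28 were higher (34%) and 8 lower (33.3%) in RET. B16F10 luc2 and HCmel12 differed in 31 members (69.1%), with 23 higher (35.3%) and 8 lower (33.8%) in B16F10 luc2. RET and D4M differed in 34 (77.1%), with 22 higher (38.8%) and 12 lower (38.3%) in RET. B16F10 luc2 and RET were closest, with 19 members called (51.5%), 10 higher (25.2%) and 9 lower (26.2%) in B16F10 luc2. B16F10 luc2 and D4M differed in 33 members (77.7%), 16 higher (38.8%) and 17 lower (38.9%) in B16F10 luc2. D4M and HCmel12 differed in 29 (72.5%), 17 higher (36.8%) and 12 lower (35.7%) in D4M. Without HCmel12 replicate 4 the members that differed from HCmel12 numbered 34 for WT31 (70% of all genes), 37 for B16F10 luc2 (68.4%), 38 for RET (66.9%) and 29 for D4M (72%). With that library left out, 12 members were higher (36% of all genes) and 22 lower (34.1%) in WT31 than in HCmel12. In B16F10 luc2, 30 were then higher (34.5%) and 7 lower (33.8%). In RET, 30 were higher (33.9%) and 8 lower (33%), and in D4M 20 were higher (37%) and 9 lower (35%). The pairs without HCmel12 changed as well, since all lines share a fit. Between B16F10 luc2 and RET 25 members were then called (53.4% of all genes). WT31 differed from B16F10 luc2 in 38 (73.5%), from RET in 32 (74%) and from D4M in 35 (77%). From D4M, B16F10 luc2 then differed in 38 (78.6%) and RET in 36 (77.8%).

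The split into HIM- and LM-melanoma separated few members. Called with one sign in all 6 comparisons between the groups were 2 members that were higher in HIM-melanoma (6.53% of all genes), Slc3a2 and Slc7a5, and 3 that were lower (6.4%), Stc2, Slc7a3 and Cebpb. Without HCmel12 replicate 4, the same 2 and Sars were higher (6.64% of all genes) and the same 3 lower (6.64%). With no filter on low counts (2.63% of all genes), or with an absolute log2 difference of at least 1 required (1.67% of all genes), 0 members were higher in HIM-melanoma. With replicate 4 left out, Sars differed 1.2-fold between WT31 and HCmel12 (adjusted p = 0.0023 by limma). Slc3a2 and Slc7a5 encode the heavy and the light chain of the same transporter for large neutral amino acids. The mean of Slc3a2 (± SD, n = 5) was 167 ± 17.9 CPM in D4M and 206 ± 47.9 CPM in HCmel12, compared with 262 ± 9.35 CPM in RET, 375 ± 51.2 CPM in B16F10 luc2 and 1279.9 ± 172 CPM in WT31. Its weakest difference, between RET and HCmel12, was 1.3-fold (log2 difference 0.37, standard error 0.12, adjusted p = 0.0063 by limma), and replicate 4 was the only HCmel12 library within or above the range of RET. Cebpb, a C/EBP factor that can pair with ATF4, had 28.2 ± 6.42 CPM in HCmel12, 19.1 ± 4.92 in D4M, 11.6 ± 2.44 in B16F10 luc2, 7.38 ± 1.5 in RET and 5.82 ± 0.402 in WT31. For this gene, 19.6% of the 31-base sequences of its transcripts also occur in transcripts of other genes, Tmem189 among them. Kallisto therefore has to divide some of its reads. Tmem189 had means of 185, 322 and 251 CPM in WT31, B16F10 luc2 and RET and of 65.2 and 129 CPM in D4M and HCmel12, the opposite direction to Cebpb, and its part in the Cebpb difference was not tested.

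Atf4 itself (ENSMUSG00000042406.8, GRCm38 chromosome 15 from 80255184 to 80257541) was lowest in WT31 and HCmel12. The 5 replicates, here and below in the order of their numbers, had 160.3, 172, 193, 215 and 187 CPM in WT31 and 395, 333, 347, 367 and 280.4 CPM in B16F10 luc2. RET libraries had Atf4 at 332, 282, 302, 286 and 362 CPM and D4M libraries at 241, 206, 229, 271 and 302 CPM. In HCmel12, Atf4 was at 158, 174, 194, 269 and 183 CPM. Every B16F10 luc2 and RET library was above every WT31 library and above every HCmel12 library, whereas the D4M libraries overlapped with those of each other line, with HCmel12 through replicate 4 only. Atf4 was 1.85-fold higher in B16F10 luc2 than in WT31 (log2 difference 0.89, standard error 0.12, adjusted p = 2.5e-07), the difference between B16F10 luc2 and RET was not called, and neither was that between HCmel12 and WT31. Trib3, a reported target, was 39.1-fold higher in B16F10 luc2 than in WT31. In this pair 26 of the 41 tested members were lower and 8 higher in WT31 (36.4% of all genes each). Slc7a11 was among those higher in WT31.

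Ddit3 (chromosome 10 from 127290774 to 127296288), which encodes the stress transcription factor CHOP, was highest in B16F10 luc2. Its values were 12.1, 10.8, 12.6, 11.2 and 13.7 CPM in WT31 and 40.2, 60.6, 63, 61.3 and 48.1 CPM in B16F10 luc2. For RET, Ddit3 was at 26.2, 20.7, 28.8, 28.4 and 33.5 CPM, and for D4M at 14.4, 9.51, 16.2, 14.6 and 17.3 CPM. HCmel12 had Ddit3 at 17.2, 13.3, 22.8, 69.1 and 17.9 CPM. The B16F10 luc2 libraries were above all those of WT31, RET and D4M, and they overlapped with HCmel12 through replicate 4 only. The mean of HCmel12 was 28.1 ± 23.2 CPM with that library and 17.8 ± 3.89 CPM without it, and the difference between D4M and HCmel12 was called with it (adjusted p = 0.042) but not without it (adjusted p = 0.17). Between B16F10 luc2 and WT31 the difference was 4.47-fold (log2 difference 2.16, standard error 0.28, adjusted p = 1.6e-07).

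Nupr1 (chromosome 7 from 126623249 to 126630861), a small chromatin-associated protein induced by stress, varied more than any other regulator. It was at 0.114, 0.152, 0.0776, 0.231 and 0.148 CPM in WT31, where 6 counts were the most in any library, and at 4.96, 4.73, 5.57, 7.22 and 4.96 CPM in B16F10 luc2. Nupr1 in RET was at 5.06, 4.61, 3.9, 2.44 and 5.21 CPM and in D4M at 22.2, 21.4, 20.3, 28.9 and 35.8 CPM. HCmel12 libraries had Nupr1 at 0.321, 0.319, 0.73, 20.5 and 0.732 CPM. WT31 lay below and D4M above every library of the other lines, with the exception of HCmel12 replicate 4, which reached the range of D4M. D4M was 4.64-fold higher than B16F10 luc2 (log2 difference 2.21, standard error 0.33, adjusted p = 1e-06). The mean of HCmel12 was 4.52 ± 8.94 CPM with replicate 4 and 0.525 ± 0.237 CPM without it.

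Cebpg, the C/EBP member that forms heterodimers with ATF4, was among the 3 members with the smallest range over the lines. Its values were 41.4, 35.9, 34, 26.6 and 34.3 CPM in WT31 and 54.1, 43.1, 45.3, 36.4 and 40.6 CPM in B16F10 luc2. RET had Cebpg at 31.9, 36.7, 28.9, 29.9 and 27.3 CPM and D4M at 42.5, 45.3, 36.2, 49.3 and 38.5 CPM. Cebpg in HCmel12 was at 30.2, 29.5, 25.2, 53.8 and 22.3 CPM. The libraries of all pairs of lines overlapped, and without HCmel12 replicate 4 those of HCmel12 lay below those of B16F10 luc2 and D4M. Atf5, a related factor controlled by translation like ATF4, was highest in D4M (103 ± 10.6 CPM), followed by B16F10 luc2 (79.9 ± 4.88 CPM) and HCmel12 (62.7 ± 22.3 CPM), and lowest in RET (36.9 ± 6.04 CPM) and WT31 (35.1 ± 4.03 CPM), which did not differ by the test. The regulators thus had no common order, as B16F10 luc2 led for Ddit3, D4M for Atf5 and Nupr1, and HCmel12 for Cebpb.

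**Figure D3:**
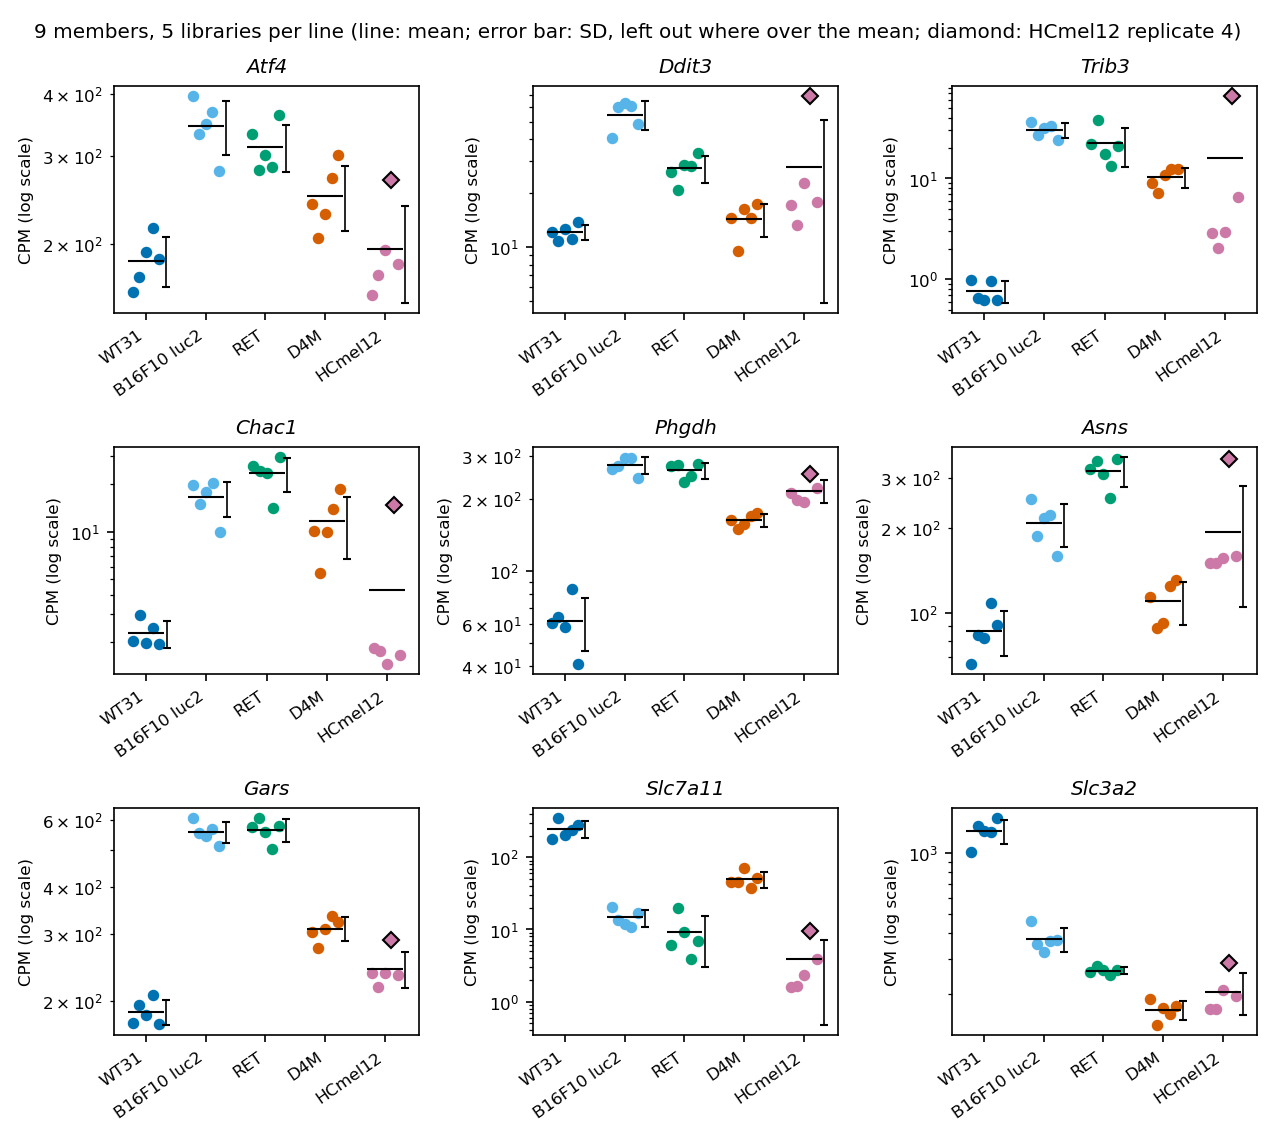
CPM of 9 members on a logarithmic axis in the 5 libraries of each line, with the mean (horizontal line) and the SD (bar to the right, left out where it exceeds the mean). Trib3, Phgdh and Gars are lowest in WT31, Slc7a11 and Slc3a2 highest, and HCmel12 replicate 4 (diamond) lies above the other HCmel12 libraries for all 9 members.

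Among the stress effectors, Trib3 and Chac1 were low in WT31 and in 4 of the 5 HCmel12 libraries. Trib3 (chromosome 2 from 152337422 to 152344032) encodes a pseudokinase that binds ATF4 and inhibits AKT. Trib3 libraries of WT31 were at 0.987, 0.646, 0.621, 0.962 and 0.628 CPM and those of B16F10 luc2 at 36.6, 27.1, 31.6, 32.9 and 24 CPM. In RET Trib3 was at 22, 37.8, 17.6, 13.2 and 21.1 CPM and in D4M at 8.92, 7.16, 10.7, 12.5 and 12.3 CPM. HCmel12 held Trib3 at 2.89, 2.03, 2.92, 65.4 and 6.59 CPM. All WT31 libraries were below all other libraries, and the highest value of the 25 libraries was that of HCmel12 replicate 4. B16F10 luc2 exceeded WT31 39.1-fold (log2 difference 5.29, standard error 0.87, adjusted p = 5.3e-06). D4M was 3.11-fold higher than HCmel12 without replicate 4 (adjusted p = 0.00032), while with it the difference was not called (adjusted p = 0.21).

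Chac1 (chromosome 2 from 119351229 to 119354381), an enzyme that degrades glutathione, showed a similar order. WT31 had Chac1 at 2.05, 2.96, 1.98, 2.46 and 1.96 CPM and B16F10 luc2 at 19.7, 15.1, 17.8, 20.3 and 10 CPM. Chac1 values in RET were 26, 24.3, 23.4, 14.1 and 29.6 CPM and in D4M 10.1, 5.51, 9.97, 14 and 18.5 CPM. In the HCmel12 libraries Chac1 was at 1.85, 1.75, 1.46, 14.8 and 1.67 CPM. The libraries of B16F10 luc2, RET and D4M overlapped with each other and were all above those of WT31. Without replicate 4, HCmel12 was below every library of the other lines, although its difference from WT31 was not called (adjusted p = 0.49). RET was 10.1-fold higher than WT31 (log2 difference 3.33, standard error 0.44, adjusted p = 2e-07).

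Ddit4 (chromosome 10 from 59949669 to 59951834) and Sesn2 both encode inhibitors of mTORC1, and both were highest in D4M and lowest in HCmel12. Ddit4 had 12.6, 14.9, 11.6, 11.3 and 16.5 CPM in WT31 and 11, 9.87, 14.1, 13.8 and 10.8 CPM in B16F10 luc2. RET libraries held Ddit4 at 20.8, 16.8, 11.4, 12.2 and 17.6 CPM and D4M libraries at 26.1, 30.9, 37.4, 31.9 and 30.5 CPM. For HCmel12, Ddit4 was at 1.77, 2.31, 1.7, 8.8 and 2.89 CPM. The D4M libraries were above and the HCmel12 libraries, replicate 4 included, below all others, and WT31, B16F10 luc2 and RET overlapped. D4M exceeded HCmel12 11-fold (log2 difference 3.46, standard error 0.28, adjusted p = 1.9e-11). Sesn2, a leucine sensor, had 58.4 ± 5.17 CPM in D4M, 41.8 ± 5.79 in RET, 40.7 ± 8.06 in B16F10 luc2, 31.8 ± 3.27 in WT31 and 17.3 ± 10.2 in HCmel12 (12.8 ± 1.7 without replicate 4).

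The other 2 stress effectors varied less. Ppp1r15a, which directs the dephosphorylation of eIF2, had means between 17.9 ± 2.18 CPM in WT31 and 39.3 ± 14.5 CPM in HCmel12. No neighbouring lines in its order differed by the test. WT31 was called below B16F10 luc2 and HCmel12, and RET and D4M were called below HCmel12. Without HCmel12 replicate 4, B16F10 luc2 was called above D4M (adjusted p = 0.019) and RET (adjusted p = 0.021). Herpud1, a component of ER-associated degradation, was highest in B16F10 luc2 (93 ± 15.4 CPM) and RET (75.2 ± 7.11 CPM), while HCmel12 (51.4 ± 16.9 CPM), D4M (45.4 ± 8.27 CPM) and WT31 (43.5 ± 8.4 CPM) did not differ between neighbours. For Herpud1 the lowest B16F10 luc2 library, replicate 5, had 66.2 CPM and the lowest D4M library, replicate 2, had 30.8 CPM.

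The secreted and surface proteins had the largest differences of all members, and each of the 3 tested had its own order of lines. Vldlr (chromosome 19 from 27216484 to 27254231), the very low density lipoprotein receptor, had 92.3, 89.4, 83.3, 76.3 and 79.1 CPM in WT31 and 68.8, 74.8, 81.8, 52.3 and 59.8 CPM in D4M. RET had Vldlr at 0.435, 0.892, 0.709, 0.48 and 0.888 CPM. In B16F10 luc2 Vldlr had 1 count in a single library, and in HCmel12 it had 2 counts in replicate 4 and none in the others. WT31 and D4M overlapped and were above the other 3 lines, and WT31 was called above D4M (1.26-fold, adjusted p = 0.0015). WT31 was at least 694-fold higher than B16F10 luc2, computed against a floor of 3 counts per library.

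Stc2 (chromosome 11 from 31357307 to 31370074), the glycoprotein stanniocalcin 2, had no counts in any library of B16F10 luc2 or RET. WT31 libraries had Stc2 at 1.25, 1.86, 1.32, 2.31 and 2.29 CPM. D4M held Stc2 at 23.3, 20.8, 16.7, 12.8 and 23.3 CPM and HCmel12 at 4.45, 3.87, 6.08, 13.6 and 6.1 CPM. The D4M libraries were above all those of WT31 and above those of HCmel12 other than replicate 4. D4M was at least 160-fold higher than B16F10 luc2, and the difference between D4M and HCmel12 was 3.09-fold (log2 difference 1.62, standard error 0.21, adjusted p = 9.1e-08).

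Gdf15 (chromosome 8 from 70629393 to 70632456), a secreted stress cytokine of the TGF-beta family, was close to the limit of detection in B16F10 luc2 alone. Gdf15 values were 36.2, 33.4, 26.1, 18.8 and 19.9 CPM in WT31 and 0.0397, 0.166, 0.124, 0.248 and 0.231 CPM in B16F10 luc2. RET stood for Gdf15 at 40.9, 45.6, 31.7, 33.5 and 27.7 CPM and D4M at 8.32, 8.93, 14.5, 6.58 and 5.88 CPM. HCmel12 had Gdf15 at 16.7, 12, 20.4, 44.1 and 29.6 CPM. All B16F10 luc2 libraries were below all others, at 6 counts or fewer, and RET, WT31 and HCmel12 overlapped. RET was 220-fold higher than B16F10 luc2 (log2 difference 7.78, standard error 0.92, adjusted p = 8.7e-08).

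Of the enzymes that make serine and pass its carbon to folate, WT31 was lowest for Phgdh, Shmt2 and Mthfd2 by the test. Psat1 and Psph were not called lowest in WT31, although its Psph libraries were all below those of B16F10 luc2 and RET. Phgdh (chromosome 3 from 98313170 to 98339990) encodes the first enzyme of serine synthesis. Phgdh was at 60.9, 64.5, 58.2, 83.8 and 40.9 CPM in WT31 and at 267, 274, 295, 297 and 244 CPM in B16F10 luc2. For RET, Phgdh stood at 275, 276, 235, 248 and 278 CPM, and for D4M at 163, 149.7, 156, 170 and 174 CPM. HCmel12 libraries held Phgdh at 211, 197, 194, 252 and 222 CPM. The highest WT31 library was below the lowest library of every other line, and D4M was below B16F10 luc2, RET and HCmel12 without overlap. WT31 was 2.7-fold lower than D4M (log2 difference of WT31 -1.44, standard error 0.12, adjusted p = 1.3e-11) and 4.57-fold lower than B16F10 luc2. Of the 31-base sequences of Phgdh, 56.3% also occur in transcripts of other genes. Gm13337, which is among these genes, was assigned at most 0.00772 CPM on average in any line.

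Mthfd2 (chromosome 6 from 83305691 to 83325908), the mitochondrial folate enzyme downstream of SHMT2, had 57.2, 52.3, 50.8, 54.5 and 39 CPM in WT31 and 287, 214, 215, 227 and 177 CPM in B16F10 luc2. RET held Mthfd2 at 277, 308, 246, 208 and 266 CPM and D4M at 106, 88.8, 97.9, 118 and 113 CPM. In HCmel12, Mthfd2 was at 82.3, 77.6, 91.9, 159 and 87.2 CPM. WT31 was below all other libraries, and B16F10 luc2 and RET, which overlapped, were above all others. RET exceeded WT31 5.15-fold (log2 difference 2.36, standard error 0.16, adjusted p = 3.8e-13). Shmt2, which splits serine to load folate in mitochondria, was also lowest in WT31 and was highest in RET, with 138 ± 15.4 CPM in WT31, 226 ± 18 in D4M, 315 ± 44.4 in HCmel12, 343 ± 21.3 in B16F10 luc2 and 491 ± 46.2 in RET.

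Psat1, the aminotransferase of serine synthesis, was among the 3 members with the smallest range. Psat1 had 349, 309, 339, 390 and 254 CPM in WT31 and 258, 235, 247, 247 and 203 CPM in B16F10 luc2. In RET, Psat1 was at 333, 356, 322, 309.7 and 368 CPM and in D4M at 297, 260.5, 238, 309.5 and 318 CPM. HCmel12 stood for Psat1 at 300.1, 297, 271, 329.7 and 293 CPM. B16F10 luc2 was below RET and HCmel12 without overlap and was called below all 4 other lines. No neighbours among the other 4 lines differed by the test, whereas RET was called above D4M. Psph, the phosphatase that completes the synthesis of serine, had 35.6 ± 4.88 CPM in RET, 29.2 ± 2.4 in B16F10 luc2, 21.8 ± 2.73 in D4M and 21.7 ± 1.3 in WT31, and in HCmel12 28.7 ± 17.9 CPM with replicate 4 and 20.9 ± 3.56 CPM without it.

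Asns (chromosome 6 from 7675169 to 7693254), the asparagine synthetase, was highest in RET. WT31 libraries had Asns at 66.2, 84, 81.6, 108 and 90.5 CPM and B16F10 luc2 libraries at 252, 187, 216, 221 and 158 CPM. Asns in RET was at 321, 343, 309, 254 and 349.5 CPM and in D4M at 114, 88.3, 92.4, 125 and 131 CPM. For HCmel12, Asns stood at 149.9, 150.1, 156, 349 and 159 CPM. WT31 and D4M overlapped and were below the other 3 lines, and RET was above all other libraries except HCmel12 replicate 4. RET was 3.69-fold higher than WT31 (log2 difference 1.88, standard error 0.18, adjusted p = 8e-10). The difference between D4M and WT31 was called without HCmel12 replicate 4 (adjusted p = 0.016) but not with it (adjusted p = 0.089).

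Cth and Cbs encode the enzymes of transsulfuration, the route from methionine to cysteine, and both were lowest in WT31. Cth (chromosome 3 from 157894248 to 157925077) had 2.73, 4.22, 3.57, 3.35 and 3.47 CPM in WT31 and 18.4, 17.1, 18.2, 19.3 and 17.1 CPM in B16F10 luc2. RET libraries stood for Cth at 15, 16.4, 12.7, 12.3 and 16.9 CPM and D4M libraries at 13.8, 11.7, 14.4, 16.7 and 14.1 CPM. In HCmel12, Cth had 7.87, 8.73, 8.59, 16.1 and 12.3 CPM. All WT31 libraries were below and all B16F10 luc2 libraries above those of the other lines. B16F10 luc2 was 5.22-fold higher than WT31 (log2 difference 2.38, standard error 0.18, adjusted p = 7.6e-12).

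Cbs (chromosome 17 from 31608894 to 31637238) was low in all lines but HCmel12. Cbs libraries of WT31 were at 0.0392, 0.231, 0.127, 0.0389 and 0.0373 CPM and those of B16F10 luc2 at 0.477, 0.125, 0.166, 0.333 and 0.193 CPM. RET had Cbs at 1.03, 1.43, 1.41, 0.761 and 0.927 CPM and D4M at 0.432, 0.758, 0.579, 0.498 and 0.511 CPM. HCmel12 had Cbs at 6.36, 4.9, 5.58, 5.05 and 6.07 CPM, without a higher value in replicate 4. HCmel12 was above all other libraries, whereas WT31 and B16F10 luc2 overlapped. HCmel12 exceeded RET 5.07-fold (log2 difference 2.34, standard error 0.21, adjusted p = 1.5e-10), and 6.08 counts were the most in any WT31 library.

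The other 3 enzymes did not share an order. Aldh18a1, which starts proline synthesis from glutamate, was lowest in WT31 (39.5 ± 5.3 CPM) and did not differ between neighbours among D4M (81.5 ± 10.9 CPM), HCmel12 (96.3 ± 44 CPM), B16F10 luc2 (103 ± 19.9 CPM) and RET (119.8 ± 13 CPM). RET was, however, called above both D4M and HCmel12. Without replicate 4, HCmel12 had 76.9 ± 7.88 CPM of Aldh18a1, and B16F10 luc2 was called above HCmel12 (adjusted p = 0.008) and D4M (adjusted p = 0.022). Pycr1, which completes proline, had 9.79 ± 1.11 CPM in RET, 7.17 ± 0.85 in D4M, 6.44 ± 0.605 in B16F10 luc2 and 4.91 ± 0.606 in WT31, and in HCmel12 5.24 ± 4.58 CPM with replicate 4 and 3.22 ± 0.9 CPM without it. Gpt2, the mitochondrial alanine aminotransferase, was highest in WT31 with 57.4 ± 3.83 CPM, compared with 36.1 ± 2.84 CPM in D4M, 32.7 ± 5.36 in RET, 26.7 ± 19.5 in HCmel12 and 24 ± 4.11 in B16F10 luc2, and WT31 exceeded D4M 1.59-fold (adjusted p = 0.0035). Without replicate 4, Gpt2 was at 18 ± 2.33 CPM in HCmel12, which was then called below B16F10 luc2 (adjusted p = 0.0089) and each other line.

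Of the 8 transporters, 3 were highest in WT31. Slc7a11 (chromosome 3 from 49892526 to 50443614) encodes xCT, which exchanges glutamate for cystine and pairs with the heavy chain encoded by Slc3a2. Slc7a11 was at 181, 348, 207, 239 and 282 CPM in WT31 and at 20.6, 13.6, 12, 10.9 and 17 CPM in B16F10 luc2. RET held Slc7a11 at 6.17, 19.9, 9.3, 3.84 and 7.03 CPM and D4M at 45.5, 45.2, 70.3, 37.9 and 51.5 CPM. HCmel12 libraries had Slc7a11 at 1.6, 1.65, 2.37, 9.61 and 3.95 CPM. WT31 was above and D4M next without overlap with any other line, and RET overlapped with both B16F10 luc2 and HCmel12. WT31 was 5-fold higher than D4M (log2 difference 2.32, standard error 0.21, adjusted p = 2.1e-10) and 81.4-fold higher than HCmel12 (109-fold without replicate 4).

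Slc3a2 (chromosome 19 from 8706882 to 8723369) had 1010, 1360, 1282, 1268 and 1479 CPM in WT31 and 461, 356, 323, 365 and 372 CPM in B16F10 luc2. For RET, Slc3a2 was at 259, 275, 262, 249.6 and 264 CPM, and for D4M at 189, 141, 171, 159 and 174 CPM. HCmel12 stood for Slc3a2 at 168, 169.7, 211, 285 and 196 CPM. The lines formed the order WT31, B16F10 luc2, RET, HCmel12 and D4M with a called difference at each step, of which that between HCmel12 and D4M was lost without HCmel12 replicate 4 (adjusted p = 0.2). WT31 was 3.41-fold higher than B16F10 luc2 (log2 difference 1.77, standard error 0.12, adjusted p = 2.9e-13). Slc7a5, the light chain LAT1, had 730.3 ± 227 CPM in WT31, 431 ± 50.4 in RET, 357 ± 38.5 in B16F10 luc2, 267 ± 52.2 in HCmel12 and 197 ± 27.7 in D4M.

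Of the cationic amino acid transporters, Slc7a1 was highest in HCmel12. Slc7a1 (chromosome 5 from 148327410 to 148399904), which imports arginine and lysine, had 184, 227, 222, 252 and 270.1 CPM in WT31 and 318, 249, 236, 275 and 236 CPM in B16F10 luc2. RET libraries had Slc7a1 at 268, 362, 304, 263 and 284 CPM and D4M libraries at 130.4, 130.4, 118, 132 and 148 CPM. In HCmel12, Slc7a1 stood at 614, 620.2, 683, 796 and 627 CPM. HCmel12 was above and D4M below all other libraries, and WT31, B16F10 luc2 and RET overlapped. HCmel12 exceeded D4M 5.06-fold (log2 difference 2.34, standard error 0.10, adjusted p = 5.4e-17).

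Slc7a3 (chromosome X from 101079210 to 101086020) was low in all lines, with at most 35 counts in a library, and had no count in WT31. B16F10 luc2 had Slc7a3 at 0.0794, 0.249, 0.165, 0.124 and 0.346 CPM and RET at 0.0791, 0.0372, 0.0394, 0.04 and 0 CPM, the latter with at most 2 counts. D4M stood for Slc7a3 at 0.69, 0.711, 0.98, 0.578 and 0.767 CPM and HCmel12 at 0.642, 0.518, 0.324, 1.41 and 0.651 CPM. The D4M libraries were above those of B16F10 luc2, RET and WT31, and D4M was at least 6.53-fold higher than WT31. HCmel12 overlapped with D4M and with B16F10 luc2.

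Of the transporters for small neutral amino acids, Slc1a5, which imports glutamine, had the smallest range of all tested members. Slc1a5 was at 53.3, 85.2, 78.6, 84.9 and 103 CPM in WT31 and at 67, 59.3, 68, 78.1 and 62 CPM in B16F10 luc2. In RET, Slc1a5 stood at 74.4, 82.2, 74.4, 70.5 and 71.9 CPM and in D4M at 86.7, 98.3, 95.2, 88.6 and 78.9 CPM. HCmel12 held Slc1a5 at 74.3, 72.5, 84.5, 112 and 85.9 CPM. D4M and B16F10 luc2 did not overlap, all other pairs of lines did, and the difference between D4M and B16F10 luc2 was 1.34-fold (log2 difference of B16F10 luc2 -0.42, 95% confidence interval -0.68 to -0.16, adjusted p = 0.0038). Slc1a4, an exchanger of alanine, serine and cysteine, was highest in D4M (54.2 ± 6.55 CPM), followed by RET (35 ± 7.06 CPM) and B16F10 luc2 (28.5 ± 5.72 CPM), and WT31 had 15.3 ± 2.01 CPM. HCmel12 had 17.5 ± 18.2 CPM of Slc1a4 with replicate 4 and 9.42 ± 1.35 CPM without it, and was called below WT31 only in the second case (adjusted p = 0.0029). Slc38a2, the transporter SNAT2, was highest in D4M (337 ± 18.3 CPM), lowest in HCmel12 (158 ± 16 CPM) and between 206 ± 11 and 209 ± 44 CPM in the other lines.

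The genes for tRNA charging and export varied by less than 2 on the log2 scale and were lowest in WT31 with the exception of Sars. Gars, the glycyl-tRNA synthetase, had the widest range, with 187 ± 14.3 CPM in WT31, 243 ± 26.8 in HCmel12, 309.9 ± 22.6 in D4M, 557 ± 34.6 in B16F10 luc2 and 565 ± 38.6 in RET. RET was 3.02-fold higher than WT31 (log2 difference 1.59, standard error 0.07, adjusted p = 1e-16). Aars, for alanine, had 224 ± 15.9 CPM in WT31 and 445 ± 30.5 CPM in RET, and Wars, for tryptophan, 92.7 ± 4.05 CPM in WT31 and 221 ± 3.71 CPM in B16F10 luc2. Nars, for asparagine, ranged from 186 ± 14 CPM in WT31 to 290.4 ± 30.9 CPM in D4M. Eprs, for glutamate and proline, ranged from 185 ± 14.6 CPM in WT31 to 342 ± 38 CPM in HCmel12. The exporter Xpot ranged from 107 ± 7.42 CPM in WT31 to 200.4 ± 10.4 CPM in RET. Sars, for serine, was highest in B16F10 luc2 (279 ± 29.8 CPM) and lowest in D4M (177 ± 14 CPM), with WT31 at 216 ± 10.4 CPM. Of the 31-base sequences of Xpot and Aars, 22.7% and 14.4% also occur in other genes.

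On the scale of TPM, which divides by transcript length and allows levels of different genes to be compared (5 libraries per line, 4 in D4M), the member with the highest mean over the lines was Slc3a2, with 1280 TPM in WT31 and 142 TPM in D4M. Gars was second, with between 131 TPM (WT31) and 361 TPM (RET), and Atf4 followed, with between 174 TPM (HCmel12) and 314 TPM (B16F10 luc2). In WT31 Slc3a2 was the most abundant member and Slc7a5, with 338 TPM, came next. Slc7a11 was far less abundant than Slc3a2 in every line, with 42.9 TPM in WT31 and 0.631 TPM in HCmel12. The HCmel12 mean of Slc7a11 includes replicate 4, which had 238 counts of it, whereas the other HCmel12 libraries had at most 97. Cbs, Slc7a3 and Fgf21 had the lowest means. The level of Cbs was 5.19 TPM in HCmel12.

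Within lines, the question was whether single cultures deviated for many members together. For each library, the difference from the mean of the other 4 libraries of its line was taken (log2 CPM). In 24 of the 25 libraries the median over the 41 members lay between -0.30 and 0.19, and that over all tested genes between -0.02 and 0.02. The means against which the other HCmel12 libraries were set include replicate 4. HCmel12 replicate 4 had a median of 0.91 over the members and of 0 over all genes. Of its members, 40 deviated upward, 39 lay above the range of the other 4 HCmel12 libraries and 0 below it, whereas 30.7% of all tested genes were above and 30% below that range. The exceptions were Cebpb, which lay within the range, and Cbs, which deviated by -0.17. The rank of libraries by this measure is a description of single cultures, and no test was made.

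**Figure D4:**
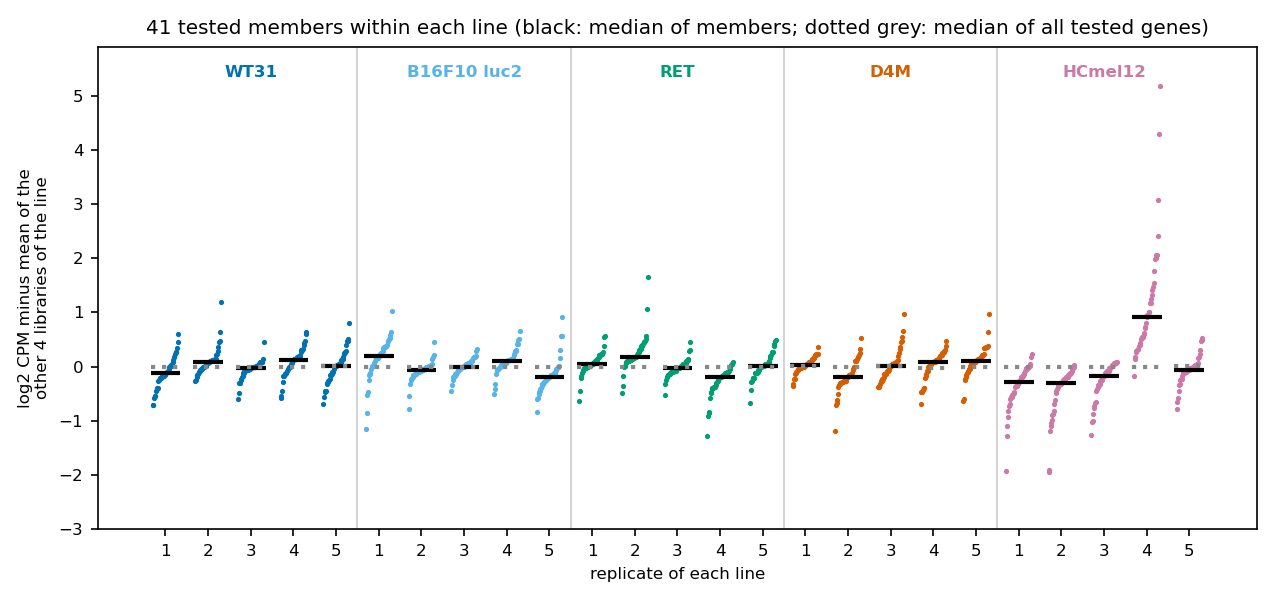
Difference of each of the 41 tested members from the mean of the other 4 libraries of its line (log2 CPM), sorted within each library, with the median of the members (black) and of all tested genes (dotted grey). The members of HCmel12 replicate 4 reach 5.18 with a median of 0.91, while the medians of the other libraries lie between -0.30 and 0.19.

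The largest deviations in HCmel12 replicate 4 were those of Nupr1 (5.18), Trib3 (4.29), Chac1 (3.08), Slc1a4 (2.41), Pycr1 (2.06) and Slc7a11 (2.06). By role, the median deviation was 1.74 for the 6 stress effectors, 1.24 for the 3 secreted and surface proteins, 1.18 for the 6 other amino acid enzymes, 0.98 for the regulators, 0.58 for the transporters, 0.43 for the synthetases with Xpot and 0.40 for the serine and one-carbon enzymes. Atf4 mRNA deviated by 0.60. The members took 0.661% of the counts of this library and between 0.432% and 0.463% in the other 4. Its lowest correlation with the other HCmel12 libraries over all genes was 0.9837, the lowest value of the 25 libraries, shared with replicate 3.

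Other pathway lists differed in how they stood in HCmel12 replicate 4. Of 12 further genes reported as ATF4 targets, 10 lay above the range of the other 4 libraries and 0 below it, to be read against 30.7% of all tested genes above and 30% below. Pck2, the mitochondrial PEP carboxykinase, had 91.1 CPM in replicate 4 and between 20.8 and 33.1 CPM in the other libraries, and Lonp1, a mitochondrial protease, had 246 CPM and between 107 and 126 CPM, both named after their values were seen. Chaperones of the endoplasmic reticulum and other genes of the unfolded protein response went in the opposite direction, as 13 of 16 lay below the range and 2 (Ern1 and Atf6) above it, with a median of -0.56. These genes also moved together in WT31 replicate 5, where 16 of 16 lay above the range of the other WT31 libraries (29.6% of all genes, median 0.50), as did 6 of 7 melanocyte markers. Of the genes for eIF2, its kinases and its exchange factor, 1 of 12 was above and 7 were below. Of 14 further tRNA synthetases, 6 were above and 5 below, of 12 further folate enzymes, 3 were above and 5 below, and of 15 other amino acid transporters, 7 were above and 4 below. Of 7 melanocyte markers, 6 were above the range in this library, among them Tyr with 30.1 CPM against between 6.31 and 9.13 CPM, and their part in the result was not tested. Over the 5 HCmel12 libraries the summed markers of fibroblasts were at 0.957 to 1.42 CPM, those of leukocytes at 2.26 to 4.08 CPM and those of keratinocytes at most at 0.162 CPM. The endothelial marker Kdr had 25.3 CPM in replicate 4 and between 26 and 38.9 CPM in the other HCmel12 libraries.

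**Figure D5:**
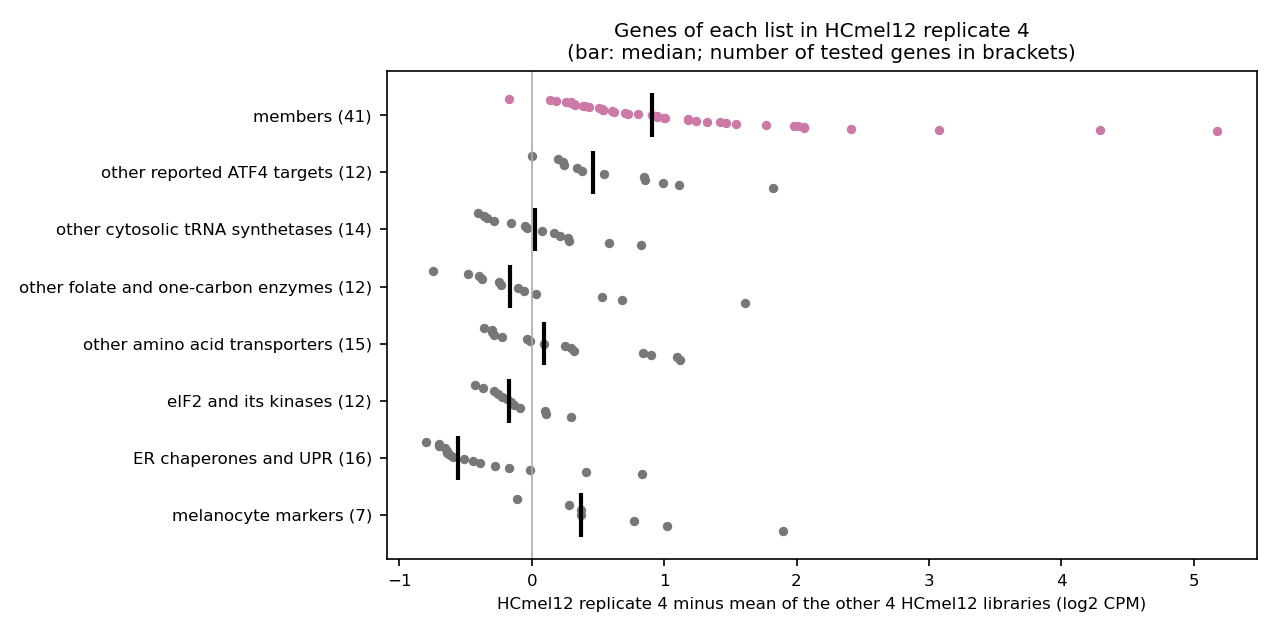
Difference of HCmel12 replicate 4 from the mean of the other 4 HCmel12 libraries (log2 CPM, horizontal axis) for each tested gene of the members and of 7 other lists (vertical axis), with the median as a bar. The median is 0.91 for the members and -0.56 for the ER chaperones.

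In the remaining lines, smaller shifts of many members occurred together. RET replicate 2 had 25 members above the range of the other RET libraries (20.3% of all genes) and RET replicate 4 had 27 below it (12.6%), with median deviations of 0.17 and -0.20. In RET replicate 2, 6 of 7 melanocyte markers and 11 of 16 genes of the unfolded protein response lay below the range (21.2% of all genes), and their part in the shift was not tested. In B16F10 luc2, 24 members were above in replicate 1 (21.3% of all genes) and 22 below in replicate 5 (22.4%). In B16F10 luc2 replicate 5, 8 of 16 genes of the unfolded protein response and 4 of 7 melanocyte markers were also below, with 2 markers above. In WT31, 17 members were below in replicate 1 (24.7% of all genes) and 16 above in replicate 4 (21.7%). Of 14 further tRNA synthetases, 12 were below in WT31 replicate 1 and 11 above in WT31 replicate 4. Of 12 genes for eIF2, its kinases and its exchange factor, 8 were below in WT31 replicate 1. The part of these lists in the shifts was not tested. In D4M, 22 members were below in replicate 2 (19.9% of all genes). In D4M replicate 2, 8 of 14 further tRNA synthetases were also below. Of 16 genes of the unfolded protein response, 7 were below and 1 above, and the 2 tested fibroblast markers were above. Their part in the shift was not tested. Over these lines the median SD of the members was 0.21 (log2 CPM) in B16F10 luc2 and 0.18 in RET, compared with 0.13 for all tested genes in both lines. In WT31 it was 0.19 compared with 0.17, in D4M 0.18 compared with 0.16, and in HCmel12 0.44 compared with 0.19. The value for HCmel12 rested on replicate 4, since over the other 4 libraries it was 0.148 for the members and 0.145 for all tested genes.

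Across the lines, the other pathway lists were read against the same shares of all genes. WT31 was below each of the 4 other lines for 4 of 14 further cytosolic tRNA synthetases (Kars, Lars, Rars and Yars), for 6 of 16 genes of the unfolded protein response (Hspa5, Hsp90b1, Pdia4, Edem1, Creld2 and Hyou1) and for 4 of 12 further reported ATF4 targets (Pck2, Eif4ebp1, Bcat1 and Nfe2l1), where 11.1% of all tested genes were lowest in WT31. These genes are named after their values were seen. The largest differences among these synthetases were those of Cars, with 110 ± 11.3 CPM in D4M and 43.8 ± 4.87 CPM in WT31, and of Dars, with 241 ± 14.7 CPM in HCmel12 and 122 ± 8.97 CPM in WT31. WT31 was above the others for 3 of these 12 targets (Gadd45a, Ero1a and Sqstm1) and for 0 of the tRNA synthetases and unfolded protein response genes, where 13.8% of all tested genes were highest in WT31. D4M was highest for 6 of the 16 unfolded protein response genes and 5 of the 14 synthetases, where 20% of all tested genes were highest in D4M. Gadd45a, a growth arrest gene, had the largest difference of the reported targets, with 38.6 ± 10.9 CPM in WT31 and 2.73 ± 0.513 CPM in HCmel12 (log2 difference 3.78, adjusted p = 5.3e-12). Eif4ebp1, which restrains cap-dependent translation, came second, with 278 ± 17.8 CPM in D4M and 27.7 ± 3.57 CPM in WT31 (log2 difference 3.33, adjusted p = 1.8e-16).

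Among 15 tested genes of 19 other amino acid transporters, WT31 was highest for 6 (13.8% of all genes) and lowest for 2 (11.1%). Slc7a8, a further light chain that pairs with Slc3a2, had 2330 ± 303 CPM in WT31, 12.5 ± 4.51 CPM in HCmel12 and at most 2.68 CPM on average in the other lines. Slc1a3, a glutamate transporter, had 25.5 ± 3.6 CPM in HCmel12 and at most 1.01 CPM on average elsewhere. Of the 12 tested folate enzymes, WT31 was lowest for 3 (Mthfd1l, Shmt1 and Aldh1l2, with 11.1% of all genes) and highest for 2 (13.8%). Mthfd2l, the close relative of Mthfd2, was at 0.0498 CPM in B16F10 luc2 and 0.998 CPM in RET, the lines with the highest Mthfd2, and at 19.6 to 20.5 CPM in the other 3 lines. Aldh1l1, which oxidises formyl-folate, was at 20.8 ± 2.11 CPM in B16F10 luc2 and 12.6 CPM in RET but under 1 CPM in the others.

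The kinases and subunits upstream of ATF4 differed by less than 2 on the log2 scale. Eif2ak1, which encodes the heme-regulated kinase HRI, was highest in HCmel12 (244 ± 16.5 CPM) and lowest in D4M (73.9 ± 2.63 CPM), with a log2 difference of 1.72 (adjusted p = 3.4e-20). Eif2b2, a subunit of the exchange factor, was highest in D4M (124 ± 6.65 CPM) and lowest in HCmel12 (50.7 ± 4.85 CPM). Of the 12 genes, WT31 was lowest for 1 (Eif2s1, with 11.1% of all genes) and highest for 0 (13.8%). In the unfolded protein response, the largest differences were those of Atf6, with 195 ± 16.4 CPM in D4M and 42.2 ± 1.56 CPM in RET, and of Creld2, with 103 ± 4.15 CPM in B16F10 luc2 and 35.1 ± 7.4 CPM in WT31.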

How the data were processed

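RNA-seq for the study covered 5 cultures of each of 5 melanoma lines, with library preparation and sequencing at BGI. Reads were trimmed with Trim Galore 0.6.4 and assigned to GRCm38.p6 with kallisto (listed as version 0.4.6 in the submitters' processing notes). The authors deposited estimated counts per gene, which need not be whole and depend on how kallisto divides shared reads, and TPM, which the authors scaled to transcript length and depth. No TPM table was used here for D4M replicate 1. The 42 members and all lists were chosen with earlier results of these data known. Genes were kept by filterByExpr (edgeR 4.0.16), scaled by TMM and fitted with voom and limma 3.58.1 (R 4.3.3) with a mean per line, adjusted over all 15247 tested genes in each comparison. This was tested on simulated data. Per-library values are given for the 14 tested members with the largest and the 3 with the smallest difference between lines and for Atf4, Ddit3, Asns and Phgdh. For the other pathway lists, the genes with the largest and second largest difference are named, and further genes were named after their values were seen. Alternatives covered scaling, test (edgeR, DESeq2 1.42.0), filter, lines in the fit, replicate block, TPM, threshold and each library left out. The HCmel12 comparisons without replicate 4 were planned among these.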

Additional observations from a re-analysis of the deposited data

Results flagged for a closer look

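In 26 of 199 groups of a member and a line, the highest or lowest of the 5 libraries lay far from the others. Its gap to the nearest library was above 0.71 of the whole range. Members of a single library are not independent groups, and HCmel12 replicate 4 had been set apart beforehand. The number of flagged values is therefore a description and no test. Of the 26, 22 were high values of HCmel12 replicate 4, where 30.7% of all tested genes lay above and 30% below the range of the other 4 HCmel12 libraries. The share of all tested genes past the gap limit is not given. Lying out of range is a looser measure, so that the 22 values cannot be called particular to the members. In this library the regulators Atf5, Ddit3, Cebpg and Nupr1 were at 102, 69.1, 53.8 and 20.5 CPM, and the stress effectors Trib3, Chac1, Sesn2 and Ddit4 at 65.4, 14.8, 35.3 and 8.8 CPM. The secreted protein Stc2 was at 13.6 CPM, and the enzymes Psph, Mthfd2, Asns, Aldh18a1, Pycr1 and Gpt2 at 60.3, 159, 349, 174, 13.3 and 61.3 CPM. The transporter Slc1a4 was at 50 CPM. For charging and export of tRNA, Aars, Gars, Sars, Wars, Nars and Xpot stood at 349, 289, 299, 197, 280 and 201 CPM. For Nupr1 the other 4 HCmel12 libraries lay between 0.319 and 0.732 CPM, and for Nars between 211 and 216 CPM.

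The other 4 values belonged to other lines. Herpud1 was low in B16F10 luc2 replicate 5 (66.2 CPM, the others between 93.5 and 103 CPM) and in D4M replicate 2 (30.8 CPM, the others between 46.9 and 50.6 CPM). Pycr1 was low in RET replicate 4 (7.86 CPM, the others between 9.8 and 10.5 CPM). Slc38a2 was high in RET replicate 2 (256 CPM, the others between 189 and 205 CPM).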

How the results depend on the processing

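None of the 310 calls of a member in a pair of lines changed direction under any of the alternatives run. The counts of members in this section stand without the share of all genes under the same setting. They show how the member counts moved, and not whether they exceeded that share. Scaling by library size only left 2 members above the 4 others in B16F10 luc2, 4 above in D4M and 1 below in B16F10 luc2, and shifted the median of all genes by up to 0.225 (log2) in comparisons with D4M. TPM with a pseudocount of 1 or 0.1 gave the same 3 counts (2, 4 and 1). The Slc1a5 difference between D4M and B16F10 luc2 missed the threshold with library size only (0.27, adjusted p = 0.051) and with TPM (0.29 and 0.30, adjusted p = 0.085 and 0.083, by limma). Without a filter, 1 member was below in D4M and 0 were higher in HIM-melanoma. With at least 10 counts in every library, fewer members were tested, 1 was below in B16F10 luc2 and 1 lower in HIM-melanoma. Fits of only the 2 lines compared left 6 members above in RET. With an absolute log2 difference of at least 1 required, 22, 18 and 18 members differed between WT31 and B16F10 luc2, RET and D4M, 5, 13 and 16 between B16F10 luc2 and RET, D4M and HCmel12, 16 each between RET and D4M or HCmel12, and 12 between D4M and HCmel12. WT31 was then above for 2 and below for 7, B16F10 luc2 above for 0 and below for 1, RET above for 0, D4M above for 3 and below for 0, and 0 were higher in HIM-melanoma.

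With each library left out in turn, the members above the 4 others ranged from 2 (without B16F10 luc2 replicate 1 or 4, or RET replicate 4) to 5 in B16F10 luc2 and from 2 to 7 in RET (5 without RET replicate 4, 7 without HCmel12 replicate 4). The members below the others ranged from 1 (without B16F10 luc2 replicate 5) to 2 in B16F10 luc2, from 1 (without D4M replicate 3 or HCmel12 replicate 4) to 3 in D4M, from 3 to 7 (without HCmel12 replicate 4) in HCmel12 and from 14 to 16 in WT31. The members higher in HIM-melanoma ranged from 2 to 3 (without HCmel12 replicate 4). Leaving out HCmel12 replicate 4 lost 4 calls and gained 36. The replicate numbers did not pair the libraries, since the correlation of deviations lay between -0.131 and 0.14 for the same number and between -0.147 and 0.17 for other numbers. With the replicate block 10 calls of members were lost and 2 gained, and 108169 in place of 107912 calls were made over all genes. Depth limits Fgf21, Slc7a3, Cbs and the low lines of Stc2, Vldlr, Gdf15 and Nupr1. Replicates were cultures of a single line each, and in comparisons with D4M or HCmel12 line and medium cannot be told apart.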
